A study of Homo sapiens with 18 samples.

Results

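Baseline RNA levels of untransformed MCF10A-ErSrc cells were set against the promoter peaks of RNA polymerase II (RNAPII) in the same cells. MCF10A-ErSrc is a human breast epithelial line that carries the v-Src oncoprotein fused to part of the estrogen receptor, so that tamoxifen switches v-Src on. All groups carried this fusion, and non-treated (NT) cells received no tamoxifen. Of 18 samples in the series, the comparison used the 2 RNA-Seq libraries of NT cells kept in DMSO for 4 h and the list of RNAPII promoter peaks of NT cells in DMSO. Each gene was placed by whether any of its annotated transcription start sites (TSSs) lay inside a listed peak. Of 20556 genes with an RNA value that could be placed on the genome, 10809 (52.6%) had a TSS in an NT peak and 9747 had none. RNA levels are given in FPKM, fragments scaled to the length of the transcript and to the mapped fragments of the library. Genes of at least 50 FPKM on average are called highly expressed (1346 genes), and genes with no count in either NT library are called silent (2811 genes). The other RNA-Seq groups, of 2 libraries each, included NT cells with triptolide (NT + TPL). Cells treated with 2 µM tamoxifen were kept in DMSO (TAM) or given triptolide (TAM + TPL). DMSO or triptolide was applied for 4 h, and the labels give the triptolide dose as TPL-125nM. TAM is the paper's name for cells that tamoxifen has transformed, a treatment longer than the 4 h of DMSO or triptolide. The study's methods describe the replicates as independent biological ones, and all come from a single cell line.

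RNAPII assembles at promoters with general transcription factors such as TFIIH and initiates there. In many genes it pauses shortly after the start before it elongates through the gene body. The antibody used in the ChIP-Seq, 8WG16, recognizes the repeated tail of the largest RNAPII subunit. A peak at a TSS therefore reports polymerase on the DNA, while an RNA-Seq level reflects synthesis, processing and decay of the RNA together. Triptolide binds the XPB subunit of TFIIH and blocks initiation.

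The NT libraries held 8099426 and 8100750 expected counts, so that 3 counts of a gene of 1000 bases amounted to 0.370 FPKM in each. Their normalized counts on a log scale correlated with r of 0.980 across the genes that passed the filter on low counts. Basal breast epithelial markers were high, with a median of 379 FPKM over 11 genes. Of 7 listed markers of other cell types that were measured, COL1A1 was the highest at 3.9 and 3.8 FPKM, and CD3E and COL3A1 were at 0. The 8 luminal markers had a median of 8.57 FPKM, and 6 of them reached 1 FPKM. KRT18, KRT8 and ESR1 were highly expressed, PGR was at 0, and KRT19 stood at 0.0900 and 0.0800 FPKM. In such bulk libraries, fewer cells that express a gene and less RNA per cell cannot be told apart.

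Promoter sequences of 6 genes show what the extremes look like. Each is the stretch of 250 bases just upstream of the main TSS, read 5′ to 3′ on the strand of the gene in GRCh37. Capitals mark 5 motifs on either strand: TATAAA (the TATA box), CCAAT (the CCAAT box), GGGCGG (the GC box), CCGGAA (a core bound by ETS factors) and ATTTGCAT (the octamer). A GC box on the other strand reads CCGCCC. In H3C7, TATAAA was found on both strands in overlapping letters. H3C1 (chr6:26020429-26020678, plus strand), H1-3 (chr6:26235216-26235465, minus) and H3C7 (chr6:26250864-26251113, minus) encode replication-dependent histones and were silent with an NT peak over the start.
H3C1: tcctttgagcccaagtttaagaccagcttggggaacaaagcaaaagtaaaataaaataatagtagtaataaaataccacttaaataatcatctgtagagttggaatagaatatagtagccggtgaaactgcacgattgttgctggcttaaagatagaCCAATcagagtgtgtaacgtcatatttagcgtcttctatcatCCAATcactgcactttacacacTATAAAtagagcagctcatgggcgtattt
H1-3: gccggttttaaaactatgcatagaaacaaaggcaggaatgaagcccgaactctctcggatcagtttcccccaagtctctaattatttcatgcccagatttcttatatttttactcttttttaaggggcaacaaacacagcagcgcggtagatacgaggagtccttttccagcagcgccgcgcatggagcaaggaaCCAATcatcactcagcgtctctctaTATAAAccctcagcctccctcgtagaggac
H3C7: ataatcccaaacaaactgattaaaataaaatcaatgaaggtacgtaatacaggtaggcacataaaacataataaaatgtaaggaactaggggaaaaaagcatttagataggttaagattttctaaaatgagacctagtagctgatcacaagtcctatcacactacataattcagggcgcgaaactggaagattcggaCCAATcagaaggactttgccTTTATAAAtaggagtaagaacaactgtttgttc
SERPINB2 (chr18:61554689-61554938, plus) was highly expressed and had no NT peak.
SERPINB2: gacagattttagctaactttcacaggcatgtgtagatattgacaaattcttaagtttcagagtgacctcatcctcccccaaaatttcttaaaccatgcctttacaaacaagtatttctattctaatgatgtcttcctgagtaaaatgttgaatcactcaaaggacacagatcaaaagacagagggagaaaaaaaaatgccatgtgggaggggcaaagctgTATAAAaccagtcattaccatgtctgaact
MT2A (chr16:56642246-56642495, plus) had the highest RNA level of any gene with a peak, and LAMB3 (chr1:209825771-209826020, minus) had the widest peak.
MT2A: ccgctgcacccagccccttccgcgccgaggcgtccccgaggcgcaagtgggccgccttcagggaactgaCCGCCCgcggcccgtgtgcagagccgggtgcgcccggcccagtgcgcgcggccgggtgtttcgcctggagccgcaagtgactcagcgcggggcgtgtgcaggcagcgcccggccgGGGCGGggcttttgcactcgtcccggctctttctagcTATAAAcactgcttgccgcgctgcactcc
LAMB3: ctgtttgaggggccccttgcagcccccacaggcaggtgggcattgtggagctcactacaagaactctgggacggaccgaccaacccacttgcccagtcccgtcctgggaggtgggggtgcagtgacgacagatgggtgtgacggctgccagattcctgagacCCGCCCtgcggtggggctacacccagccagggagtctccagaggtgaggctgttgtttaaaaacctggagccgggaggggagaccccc
A TATAAA motif began at position -29 from the TSS in H3C1 and MT2A and at -30 in H1-3 and SERPINB2. These letters occurred in silent genes with a peak and in high genes of both kinds. LAMB3 held the GC box alone of the 5 motifs.

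The share of genes with a peak rose with the RNA level. Of 2811 silent genes 188 had a peak (6.69%), and of 1573 genes above 0 and under 0.1 FPKM 119 had one (7.57%). The share was 22.3% of 3556 genes from 0.1 to under 1 FPKM and 65.6% of 6948 genes from 1 to under 10 FPKM. It levelled off above that, at 90.8% of 4995 genes from 10 to under 100 FPKM and 92.1% of 673 genes of 100 FPKM and over. Binned on the first or second library alone, the share of the uppermost bin was 92.4% and 92.8%, and that of the silent bin 7.92% and 8.28%. From 10 to under 100 FPKM these values were 90.6% and 91.0%, so the top bin was slightly higher in both libraries. Both values rest on the same peak list, so their gap does not measure the uncertainty of the share. Under 0.1 FPKM they were 7.67% and 6.93%, and the order of the lowest bins was not the same as on the mean, so those bins cannot be ranked. When a TSS within 1 kb of a peak was also counted, the top bins stood at 93.0% and 93.9% and the silent bin at 9.78%.

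**Figure D1:**
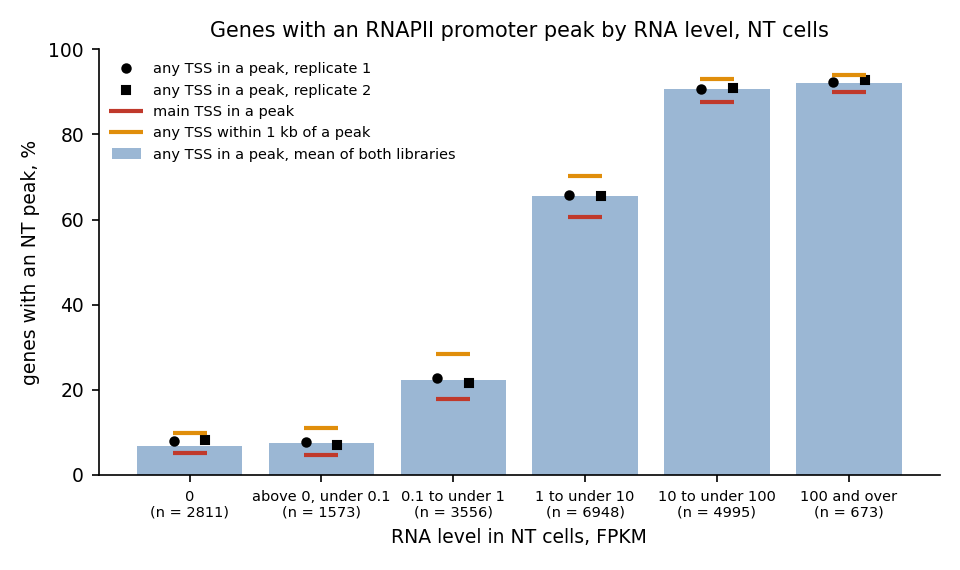
Percent of genes with a TSS inside an NT RNAPII peak (vertical axis) in bins of mean NT FPKM (horizontal axis), as bars, with the value binned on each NT library as a black point, while red lines count the main TSS alone and orange lines any TSS within 1 kb of a peak. The share climbs from 6.69% of silent genes to 92.1% of genes of 100 FPKM and over, and the bin from 1 to under 10 FPKM lies between at 65.6%.

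Genes with a peak had a median level of 8.95 FPKM in the first NT library and 9.55 FPKM in the second, against 0.190 FPKM in both libraries for genes without one. On the log2(FPKM + 0.1) scale the medians differed by 4.96 and 5.06, or 4.94 on the mean level. Quartiles of genes with a peak ran from 3.49 to 23.1 FPKM, and those of genes without one from 0 to 1.38 FPKM, so the middle ranges did not overlap. Of genes with a peak 89.8% reached 1 FPKM, and of genes without one 29.8% did, which is 2906 genes. Genes with a peak held 89.1% and 89.3% of all counts of the libraries, and genes without one held 8.78% and 8.52%. By kind of gene, 57.9% of 16944 protein-coding genes and 31.2% of 2587 long non-coding RNA (lncRNA) genes had a peak. Among those of at least 1 FPKM the shares were 81.1% and 45.7%. The list gives positions only, with no height or read count, so that a missing peak means no listed interval over the TSS and not an absence of RNAPII.

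Seen from the peaks, most of those that held a gene with an RNA value had an expressed gene. Of 11222 NT peaks, 9825 held a TSS of a gene with an RNA value. In 9305 of these (94.7%) at least 1 gene reached 1 FPKM. Among the other peaks, 1103 held no annotated TSS and 60 lay outside the primary chromosomes. Genes listed in no RNA library have no value here, so the 94.7% is not a share of all peaks. In 94 peaks the highest gene lay under 0.1 FPKM, and 53 held silent genes alone. A total of 1781 peaks held TSSs of at least 2 genes, 1608 of them on both strands. Peak widths had a median of 632 bp, with quartiles of 369 and 1029.75 bp, and ranged from 149 to 46310 bp.

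Highly expressed genes nearly all had a peak, 1260 of 1346, and 86 did not. Of the 86, 72 were protein-coding, 8 were lncRNA genes and 3 were pseudogenes. Their median level was 112 FPKM, against 98.7 FPKM for the 1260 with a peak. They held a median of 5 annotated TSSs, fewer than the 8 of high genes with a peak. The limit of 50 FPKM cut through close values. DDX41 (53.0 and 47.1 FPKM), with a peak, and IFI30 (54.5 and 45.5 FPKM), without, fell just inside. ZNF146 (44.9 and 55.0 FPKM), with a peak, and SERPINA1 (54.3 and 44.9 FPKM), without, fell just outside.

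TIMP1, an inhibitor of matrix metalloproteinases on chromosome X, was the most highly expressed gene without a peak, at 3014 and 2099 FPKM. Its nearest NT peak lay 711 bp away, and the TAM and TAM + TPL lists each covered a TSS of it. KRT81, a type II hair keratin, followed with 2525 and 2123 FPKM and a nearest peak 33717 bp away. KRT14, the type I keratin of basal epithelium, stood at 604 and 499.6 FPKM with a peak 918 bp away. MYADM, a membrane protein gene, had 289 and 281 FPKM and a peak edge 35 bp from its nearest TSS. FGFBP1, which encodes a carrier of fibroblast growth factors, had 317 and 247 FPKM and a peak edge 242 bp away. These genes thus ranged from a near miss of a few bases to no peak in the wide surroundings.

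Among the other high genes without a peak, PI3, the protease inhibitor elafin, had 372 and 308 FPKM with its nearest peak 79435 bp away. TAGLN, the actin-binding protein transgelin, had 381 and 291 FPKM with a peak 20431 bp away. SERPINB2, plasminogen activator inhibitor 2, had 236 and 268 FPKM, and the TAM list alone of the other 3 covered it. RXYLT1-AS1, an antisense lncRNA gene (624 and 759 FPKM), and KANTR (370.5 and 403 FPKM) lay 21481 and 11593 bp from a peak. The strand setting of the counting is not given in the sources used here, so the reads of RXYLT1-AS1 and those of overlapping genes cannot be told apart. ESR1, the estrogen receptor gene, was listed at 199.7 and 248 FPKM with its nearest peak 204010 bp away. The cells carry an estrogen receptor fusion, and a value per gene does not separate its reads from those of ESR1 itself.

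**Figure D2:**
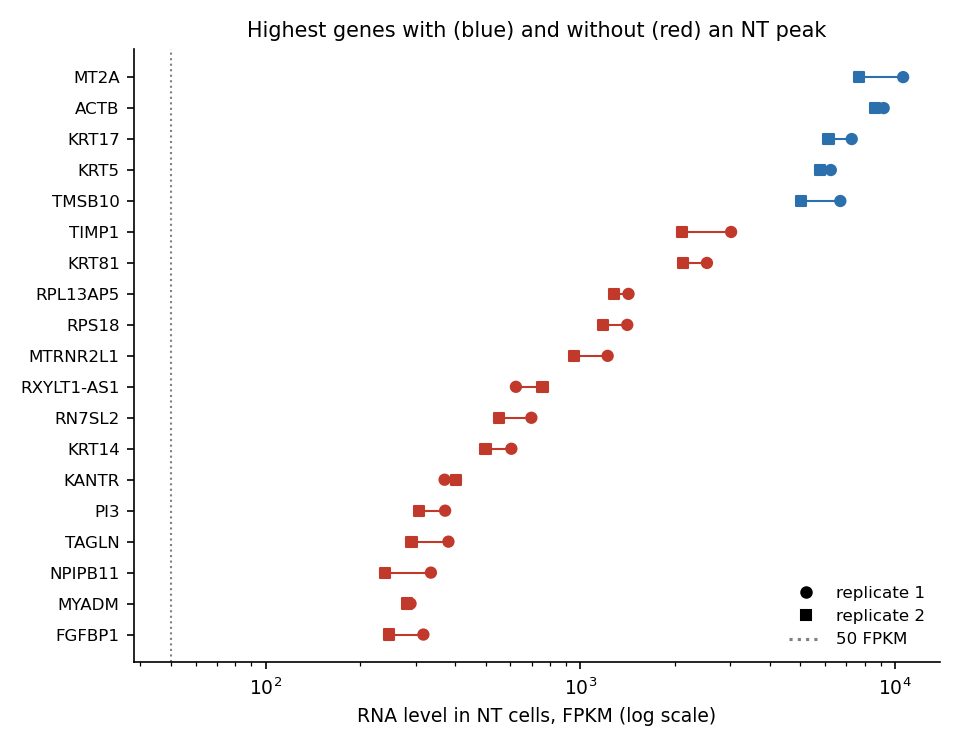
FPKM in each NT library, on a log axis, for the highest genes without an NT peak (red, leaving out any whose promoter windows recur for 50% or more) and the 5 highest with one (blue), with a dotted line at 50 FPKM. TIMP1 at 3014 and 2099 FPKM heads the genes without a peak, below MT2A at 10608 and 7684 FPKM.

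The 5 highest genes with a peak were higher still. MT2A, a metallothionein that binds zinc and copper, had 10608 and 7684 FPKM, and ACTB, cytoplasmic actin, had 9202 and 8629 FPKM. The basal keratins KRT17 (7284 and 6144 FPKM) and KRT5 (6249.6 and 5776 FPKM) and the actin monomer-binding gene TMSB10 (6701 and 5038 FPKM) completed this group. Their peaks were between 4023 and 8427 bp wide.

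The 86 genes were described by 3 features of position or sequence, and the part of each in a missing peak was not tested. First, 20 of the 86 had a listed peak within 1 kb of a TSS, while 61 had none within 10 kb, and the median distance was 35657.5 bp. Second, 12 (14.0%) lay in the major histocompatibility complex (MHC) interval of chromosome 6, against 5 of the 1260 (0.397%). Last, sequence that recurs elsewhere in the assembly was more common. Windows of 50 bases, the ChIP read length, recurred for at least 50% of the promoter in 8 of the 86 (9.30%) and in 6 of the 1260 (0.476%). For the transcript the counts were 15 (17.4%) and 54 (4.29%). Of the 86 genes 45 had at least 1 of the 3 features, and 41 had none.

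Genes with recurring transcripts have uncertain levels, because the estimates can divide reads among copies. RPL13AP5, a processed pseudogene of a ribosomal protein gene, was listed at 1423 and 1279 FPKM with 73.5% of its transcript windows found elsewhere. RN7SL2, an RNA of the signal recognition particle, had 699 and 553 FPKM and 87.9% recurring transcript windows. NPIPB11, of a duplicated gene family, had 335 and 239 FPKM and 81.9%. MTRNR2L1, a nuclear gene that resembles a stretch of mitochondrial ribosomal RNA, had 1221 and 955 FPKM and lay 567343 bp from a peak. Only 2.32% of its transcript windows recurred, so this measure did not mark it. KRT81 (43.3%) and TAGLN (36.5%) had recurring parts below the 50% mark.

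The MHC interval from HLA-F to KIFC1 (chr6:29690552-33377673, GRCh37) stood apart from the rest of its chromosome. Of 51 genes of at least 10 FPKM there, 7 had an NT peak (13.7%), against 195 of 212 (92.0%) on the rest of chromosome 6 and 4952 of 5405 (91.6%) on the other chromosomes. In the TAM list the shares were 11.8%, 87.3% and 86.9%, in the NT + TPL list 7.84%, 74.1% and 77.2%, and in the TAM + TPL list 9.80%, 76.4% and 77.9%. The gap thus appeared in all 4 lists. The high genes without a peak in the interval included RPS18, a ribosomal protein gene (1409.8 and 1184 FPKM), and the stress gene IER3 (256.1 and 239 FPKM). The class I antigen-presenting gene HLA-B (120.1 and 104 FPKM) and the inducible heat shock genes HSPA1A (144 and 152 FPKM) and HSPA1B (113 and 122 FPKM) were also among them. The NT list also held 49 peaks on alternate haplotype sequences of chromosome 6, where no gene was placed, and their part in this gap was not tested.

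**Figure D3:**
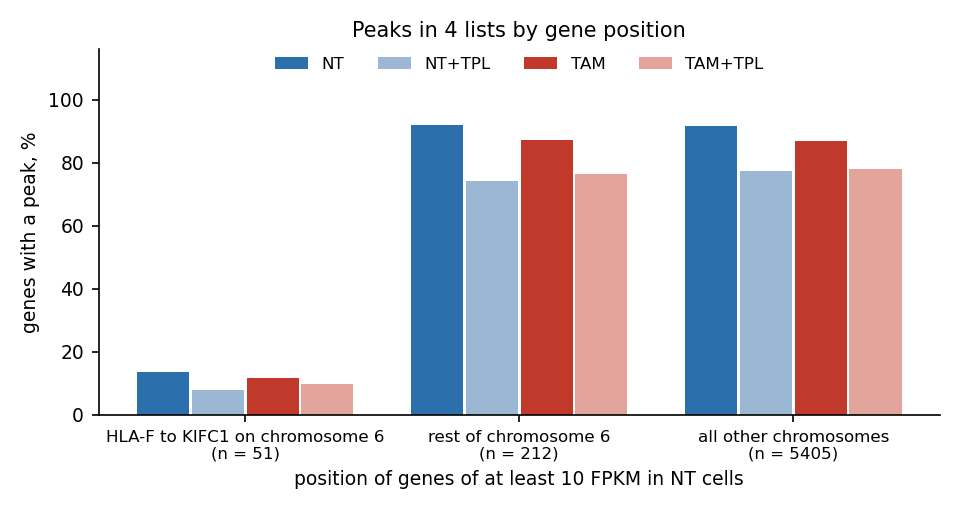
Percent of genes of at least 10 FPKM with a TSS in a peak, for the MHC interval, the rest of chromosome 6 and the other chromosomes, as bars, one for each of the 4 peak lists, with no error since each condition has a single list. The MHC interval lies between 7.84% and 13.7% in the 4 lists, and the other regions lie between 74.1% and 92.0%.

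Most of the 86 genes lacked a peak in the other conditions too. In the TAM list 11 of them (12.8%) had a TSS in a peak, in the NT + TPL list 14 (16.3%) and in the TAM + TPL list 13 (15.1%). In total 25 had a peak in at least 1 of these lists and 61 in none. Of the 1260 high genes with an NT peak, 95.8%, 85.6% and 88.0% had one in the same 3 lists. The peak names of the TAM list carry a cutoff of 0.1, against 0.02 in the other lists. The TAM list also held 4584 peaks whose names mark them as split, against 0 in the others. Its median width was 406 bp, against 632 bp in the NT list. Absence from the TAM list is therefore not the same measure.

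Silent genes with a peak were the reverse case. Of the 188, 127 shared the peak with the TSS of a gene of at least 1 FPKM, and 61 did not. The 5 silent genes with the widest peaks all lay in the peak of an expressed gene. SLC20A1-DT, a divergent transcript, sat in the 19464-bp peak of the phosphate transporter gene SLC20A1 (51.6 FPKM), and SNORD82, a small nucleolar RNA (snoRNA), in the 14918-bp peak of its host NCL (395 FPKM). MIR1304 and SNORD6 shared a 14870-bp peak with TAF1D (46.1 FPKM). Of all 188, 85 were protein-coding, 74 were lncRNA genes, 18 were microRNA genes and 8 were snoRNA genes. Antisense and divergent transcripts made up 52.

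Replication-dependent histone genes, which are transcribed in S phase to package new DNA, were frequent among the 61 silent genes whose peak held no gene of at least 1 FPKM. They were 14 of these 61 and 15 of all 188, against 2 of 2623 silent genes without a peak. Of the 12 silent genes with the widest such peaks, 10 were histone genes. H2BC17 and H3C12 shared a peak of 3619 bp (chr6:27859905-27863523), and H2BC15 (2891 bp) and H2AC16 (2560 bp) followed. H3C1 and H4C1 shared a peak of 2135 bp (chr6:26020455-26022589). H4C16 on chromosome 12 (1932 bp), H1-3 (1763 bp), H4C8 (1513 bp) and H3C7 (1445 bp) were the others. These intervals cover the TATAAA motifs printed above, and in H3C1, H1-3 and H3C7 the peak began between positions -220 and -227 from the TSS. The peak of H3C12 held another of its TSSs, and its main TSS lay outside.

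The remaining 2 of the 12 were HYPK, which encodes a partner of huntingtin (1460 bp), and the lncRNA gene LINC01962 (1242 bp). HYPK was at 0 in both NT libraries and at 7.90 and 12.2 FPKM in the TAM libraries, and it overlaps a readthrough gene, so its level is uncertain. H4C8, at 0 in NT cells, was listed at 4.91 and 1.53 FPKM with NT + TPL and at 1.94 and 0.360 FPKM with TAM + TPL.

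Over all 58 histone genes, 52 (89.7%) had a peak, while their median level was 0.333 FPKM and their median peak was 2260 bp wide. Of the 39 under 1 FPKM, 35 had a peak (89.7%), against 1099 of all 7940 genes under 1 FPKM (13.8%). Only 3 were highly expressed, namely H2BC12 (83.6 and 83.3 FPKM) and the identical copies H2AC18 and H2AC19 (76.3 and 76.2 FPKM each). The mRNAs of most of these genes end in a stem-loop in place of a poly-A tail, and the libraries were made from poly-A enriched RNA. The part of this in their levels was not tested. TATAAA occurred in the promoters of 34 of the 52 histone genes with a peak (65.4%), CCAAT in 45 (86.5%) and the octamer ATTTGCAT in 19 (36.5%). Over all 20553 promoters the shares were 8.36%, 33.5% and 1.55%.

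Silent genes were drawn from genes listed in at least 1 of the 8 RNA libraries, so each was listed in some other condition by this choice. The shares listed in both libraries of a condition are a description. Of the 188, 51 (27.1%) were listed in both NT + TPL libraries, against 27.4% of silent genes without a peak. In the TAM + TPL libraries the shares were 34.0% and 34.2%, and in the TAM libraries 15.96% and 7.78%. The peak itself recurred in the TAM list for 148 of the 188 genes (78.7%), in the NT + TPL list for 115 and in the TAM + TPL list for 108. A silent gene is one with no count at this depth, and leaving out the first or the second NT library raised the number with a peak from 188 to 304 and 291.

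Gene groups ranged widely in the share of members with a peak. Cytosolic ribosomal protein genes had one in 82 of 87 cases (94.3%), with a median level of 899 FPKM and a median peak of 5401.5 bp. RPS2 (4713 and 3795 FPKM) was the highest, and RPS18 was among the highly expressed ones without a peak. All 6 translation elongation factors and 13 of 14 glycolysis enzymes had a peak, and HK2, a hexokinase, was the exception at 12.9 and 16.4 FPKM. Proteasome subunits had a peak in 35 of 38 cases (92.1%) at a median of 31.5 FPKM and with a narrow median peak of 601 bp. Immediate early genes, which respond to growth factors and stress within minutes, had one in 13 of 17 cases, with ZFP36 (975 and 959 FPKM) and DUSP1 (534 and 574 FPKM) the highest. IER3, KLF2, EGR2 and EGR3 had none.

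Other families had shares below those of the ribosomal and glycolysis genes. Of 35 keratin genes 9 (25.7%) had a peak, and of the 11 that were highly expressed 4 had none, namely KRT81, KRT14, KRT16 (113 and 100.3 FPKM) and KRT15 (63.7 and 59.1 FPKM). S100 genes, which encode small calcium-binding proteins, had a peak in 9 of 19 cases, and S100A8 (84.4 and 51.8 FPKM) was the highly expressed member without one. Heat shock genes had one in 47 of 72 cases. Zinc finger (ZNF) genes had one in 322 of 505 cases (63.8%) at a median of only 2.44 FPKM. Divergent transcripts had one in 156 of 228 cases (68.4%) at a median of 0.430 FPKM, and antisense genes in 342 of 940 (36.4%). Genes with MIR symbols, which include lncRNA host genes of microRNAs, had one in 61 of 300 cases (20.3%). Genes annotated as microRNA genes had one in 42 of 254 cases (16.5%). HOX genes had one in 10 of 35 cases and olfactory receptor genes in 0 of 70. The shares may be read against 52.6% of all genes placed.

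**Figure D4:**
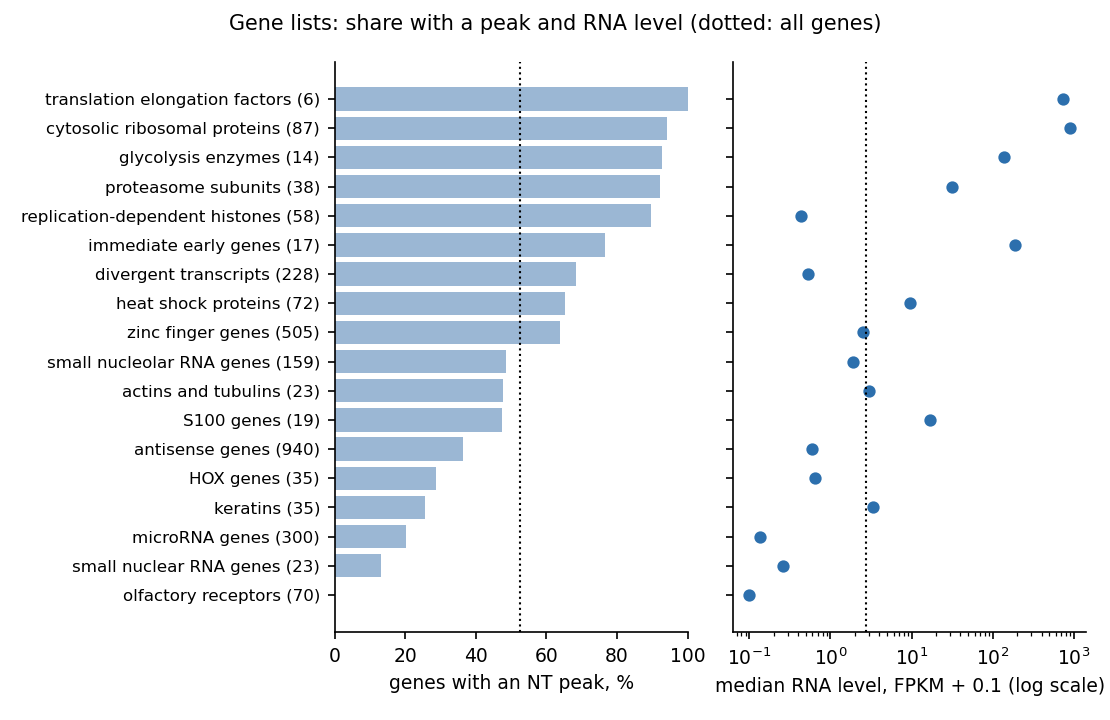
For each gene group, the percent of its genes with a TSS in an NT peak (bars, number of genes in brackets) and the median NT FPKM + 0.1 on a log axis (points), with all genes placed as dotted lines. Histone genes combine a share of 89.7% with a median of 0.333 FPKM, and keratins a share of 25.7%, while ribosomal protein genes combine 94.3% with 899 FPKM.

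Promoter sequence differed between genes with and without a peak. A CpG ratio (observed over expected CpG) of at least 0.6 was found upstream of 87.7% of genes with a peak and 39.8% of genes without one. Among highly expressed genes the shares were 89.7% with a peak and 45.3% without. GGGCGG occurred in 72.3% of promoters with a peak and 42.1% without, and CCGGAA in 29.1% and 8.24%. TATAAA went the other way, at 4.78% with a peak and 12.3% without, and at 19.8% (17 of 86) of highly expressed genes without a peak against 8.73% of those with one. SERPINB2, printed above, is of this kind. A match is a description of letters and not a binding site.

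Wider peaks went with higher RNA levels, with a wide spread. In 5 classes of width with like numbers of genes, from 149 to 415 bp up to 1354 to 46310 bp, the median level was 6.25, 7.66, 9.47, 10.8 and 16.4 FPKM. The share of highly expressed genes went from 5.59% in the narrowest class to 26.4% in the widest. Among the 464 genes with a peak under 250 bp the median was 4.08 FPKM, among 272 genes with a peak of 4 to under 8 kb it was 36.1 FPKM, and among 146 genes with a peak of 8 kb and over it was 47.5 FPKM. Across the 10809 genes Spearman's rho between width and level was 0.218 (0.213 and 0.220 in the libraries) and Pearson's r of log values was 0.247. Genes are not independent replicates here, since 1781 peaks are shared by several genes and all widths come from a single list. Both measures also fell with gene length, with rho of -0.155 for width and -0.171 for level. Within 5 classes of gene length rho of width and level lay between 0.182 and 0.272.

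The relation was steepest at the top of the RNA range. The median width was 647.5 bp from 1 to under 10 FPKM, 812 bp from 10 to under 100 FPKM and 1673 bp at 100 FPKM and over. Peaks of 2 kb or more belonged to 5.38%, 9.29% and 42.7% of these genes. Genes under 1 FPKM broke the order. The median was 702 bp from 0.1 to under 1 FPKM, 679 bp above 0 and under 0.1 FPKM and 839 bp for silent genes, and peaks of 2 kb or more belonged to 8.21%, 8.403% and 14.9% of them. Of the silent genes with a peak, 127 of the 188 shared the peak with a gene of at least 1 FPKM. Of 36 genes under 1 FPKM with a peak of 4 kb or more, 35 shared it with a gene of at least 1 FPKM. Among the 1260 highly expressed genes rho was 0.343, and their widths still ranged from under 400 bp in 106 genes (8.41%) to at least 4 kb in 197 (15.6%).

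**Figure D5:**
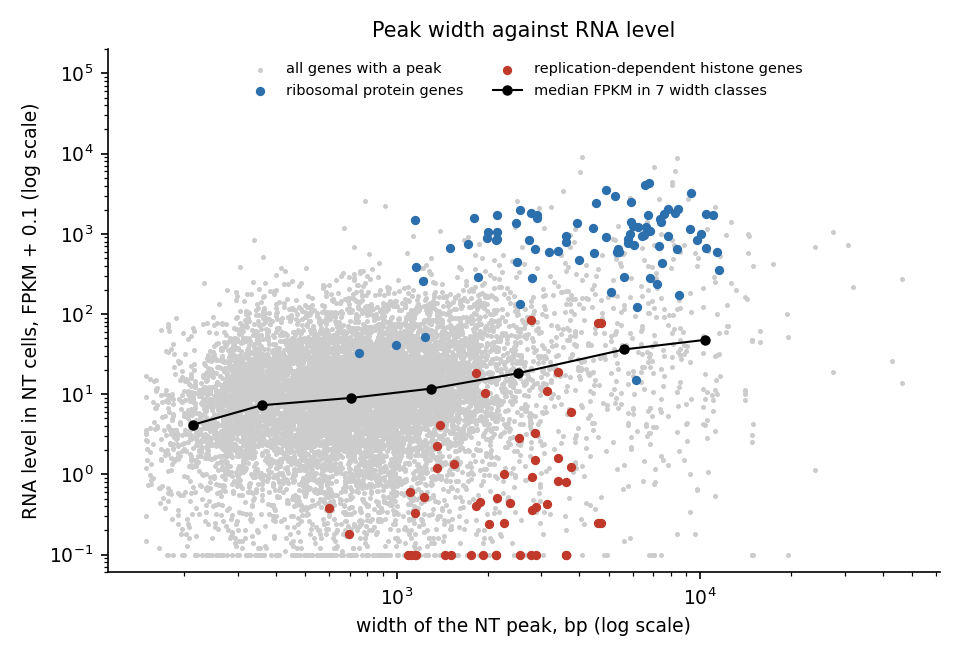
Width of the NT peak in bp against mean NT FPKM + 0.1 for 10809 genes, both on log axes, with ribosomal protein genes in blue, histone genes in red and the median of 7 width classes as a black line. The line goes from 4.08 FPKM for peaks under 250 bp to 47.5 FPKM for peaks of 8 kb and over. Genes of 100 FPKM and over have a median width of 1673 bp.

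Wide peaks extended mainly into the gene. Among peaks that held a single gene and its main TSS, those under 250 bp reached a median of 57 bp upstream and 158 bp downstream of the TSS. Those of 500 to under 1000 bp reached 324 and 359 bp, and those of 4 to under 8 kb reached 704 and 4491 bp. Of the 75 genes of the last class 37 (49.3%) had a peak that passed the annotated end of the gene. In the class of 8 kb and over the medians were 823 and 9558 bp, and 22 of 41 (53.7%) passed the end. The extent downstream thus grew far more than that upstream.

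The widest peak, 46310 bp (chr1:209781371-209827680), covered the whole of LAMB3, the beta 3 chain of laminin 332 in the basement membrane (266 and 286 FPKM). MIR4260 lies in the same peak. MIRLET7BHG, the host of a let-7 cluster, had 42801 bp at only 28.6 and 23.0 FPKM. Its main TSS lay outside this peak, which held another of its TSSs. PLEC, the cytoskeletal linker plectin (209 and 223 FPKM), TNS4, a tensin of focal adhesions (673 and 789 FPKM), and the glycolytic enzyme ENO1 (726 and 659 FPKM) had peaks of 32004, 30791 and 23919 bp. A 27366-bp peak held a TSS of each of the keratin genes KRT7 (1154 and 977 FPKM) and KRT86 (20.2 and 17.5 FPKM). The main TSS of KRT7 lay inside it and that of KRT86 outside. At the other end, NFIX (67.7 and 71.6 FPKM) and MFGE8 (79.0 and 71.1 FPKM) were highly expressed with peaks of 176 and 177 bp. NR4A1 (83.6 and 40.3 FPKM) and PRSS8 (98.9 and 78.5 FPKM) had 178 and 188 bp.

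Whether highly expressed genes without an NT peak responded to TPL was asked in TAM cells, whose libraries took no part in calling a gene high. Calls needed a Benjamini-Hochberg adjusted p no higher than 0.001 in edgeR's quasi-likelihood test, over 15681 genes, together with a log2 change of 1.2 or more in either direction. Over all genes 7.36% were called lower and 3.97% higher in TAM + TPL than in TAM cells. Of the 86 genes without a peak 6 (6.98%) were called lower and 0 higher by edgeR, and DESeq2 gave the same counts. At an adjusted p of at most 0.05 with no minimum change, edgeR put 22 (25.6%) lower and 17 (19.8%) higher. Over all genes these shares were 23.6% and 20.6%. All 86 passed the filter on low counts, with a median log2 fold change of 0.08 against 0.05 over all genes tested. This median was -0.11 without the first TAM + TPL library. Of the 1260 with a peak 177 (14.0%) were called lower and 11 higher, with a median of -0.18. The share without a peak was near the background and no test of the difference between the classes was made. At 10 to under 50 FPKM the shares called lower were 59 of 420 (14.05%) without and 562 of 3880 (14.5%) with a peak. With the first or the second TAM library left out, the median of the 86 was 0.04 each time. Without the second TAM + TPL library it was 0.17. For the 1260 with a peak these medians were -0.21, -0.16 and -0.15, and -0.20 without the first TAM + TPL library.

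The 6 genes lower with TPL in TAM cells were ANXA8L1, MYADM, ECE2, LARP1, TAGLN and TCF3. TAGLN fell from 65.2 and 68.7 FPKM in TAM cells to 26.7 and 18.9 FPKM with TPL, so the groups did not overlap (log2 fold change -1.57, SE 0.206, adjusted p = 0.000137 by edgeR). MYADM went from 102 and 134 FPKM to 34.1 and 25.5 FPKM, a change of -2.03 on that scale (SE 0.251, edgeR adjusted p = 8.94e-05). ANXA8L1, an annexin gene with close copies, went from 18.8 and 21.6 FPKM to 4.49 and 2.32 FPKM, a change of -2.57 (SE 0.249, edgeR adjusted p = 1.80e-05). All 3 fell below both TAM libraries. ECE2 and LARP1 were at -1.90 and -1.78, and TCF3, an E-protein transcription factor, at -1.33.

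In NT cells the TPL comparison shares its control libraries with the definition of highly expressed, so its values are a description. Over all genes 8.46% were called lower and 4.37% higher with NT + TPL. Of the 86 genes 12 were called lower and 3 higher, and of the 1260 with a peak 183 and 17. The median log2 fold change of the 86 was 0.27, against 0.10 over all genes tested. With 1 NT or NT + TPL library left out at a time, this median of the 86 lay between 0.12 and 0.30. SERPINB2 went from 236 and 268 FPKM to 21.0 and 3.02 FPKM, and PI3 from 372 and 308 FPKM to 52.9 and 11.5 FPKM. KRT81 went from 2525 and 2123 FPKM to 1032 and 580.02 FPKM, with no overlap in any of these. Their log2 fold changes were -4.42 (SE 0.572), -3.42 (SE 0.470) and -1.54 (SE 0.230). FGFBP1, KRT14, KRT16, TIMP1, ECE2, LARP1, MYADM, TAGLN and TCF3 were the other 9, and CHI3L1, HLA-E and PDZK1IP1 were called higher. The TPL effects of TAM and NT cells differed for 4 of the 86 genes (ANXA8L1, FGFBP1, IFI30 and KRT16), against 0.899% of all genes tested. The threshold was an adjusted p of at most 0.05 for edgeR's interaction term. The same NT libraries enter this term, so the count is a description too.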

How the data were processed

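Expected counts and FPKM were deposited per gene and library. The authors enriched poly-A RNA, aligned reads with Bowtie2 and quantified with RSEM. Rows without reads are left out of the files and were taken as 0. ChIP reads were mapped by the authors to hg19, and MACS 1.4.2 found peaks against input, per the methods and labels. A single list of intervals per condition was used, whose peak names point to replicate 1, and whether replicates were pooled is not given in the sources used here. Coordinates are 1-based, GRCh37. Of 23604 rows, 21077 were matched by gene ID and 2384 by accession, giving 21571 symbols, of which 20556 could be placed with GENCODE TSSs on build 37. RefSeq names came from a build 38 table used for names only, and promoters were read from GRCh37. The main TSS is that of the canonical transcript. RNA depth was 7461309 to 8349448 counts over 8 libraries.

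Rounded expected counts entered edgeR 4.0.16 under R 4.3.3 (quasi-likelihood test, TMM factors, low-count filter by group, a single fit of 4 groups, Benjamini-Hochberg adjustment), checked on simulated data. DESeq2 1.42.0 was an alternative. Summaries used Python 3.11.15, pandas 2.3.3 and scipy 1.17.1. Pseudocount was 0.1 on log2 scales. Members and gene lists were chosen with earlier results of these data known. Named genes were the 15 highest without a peak, the 5 highest with one, the 12 silent genes with the widest peaks that held no gene of at least 1 FPKM and the 5 with the widest of any kind, the widest 8 and narrowest 5 peaks, the leading members of each gene list, and genes nearest 50 FPKM. High genes in the MHC interval and those called with TPL were named after their values were seen. Some genes that this rule names are not reported here. No ChIP signal or read count was used. Replicate numbers were not used to pair samples in the main fit, and whether they mark pairs is not given in the sources used here.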

Additional observations from a re-analysis of the deposited data

Results flagged for a closer look

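Of the 86 highly expressed genes without an NT peak, 4 had a TPL effect in TAM cells that differed from that in NT cells, by the interaction term of edgeR's quasi-likelihood fit at a Benjamini-Hochberg adjusted p of at most 0.05. Over 15681 genes 141 (0.899%) did. FGFBP1 had a difference of 3.93 on the log2 scale (adjusted p = 0.00786), with -3.91 in NT and 0.03 in TAM cells. KRT16, a keratin of activated epithelium, had 2.02 (adjusted p = 0.00705), with -2.76 in NT and -0.74 in TAM cells. ANXA8L1 had -1.98 (adjusted p = 0.0177), with -0.59 in NT and -2.57 in TAM cells. IFI30, a lysosomal thiol reductase, had -1.23 (adjusted p = 0.0459), with 1.07 in NT and -0.16 in TAM cells. The NT effect shares its control libraries with the choice of these genes. A gene picked for high NT values can fall from them through that choice. The 4 genes, their p-values and their number beside the share over all genes are therefore a description and not a test.

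Some data lay outside the comparison. The NT list held 49 peaks on alternate haplotype sequences of chromosome 6, which no gene was placed on. There were 23 RNA entries of at least 50 FPKM for which no gene was placed, the highest at 45444 and 37930.2 FPKM in the NT libraries. They included CD24 (759 and 823 FPKM), whose promoter could not be looked up, and MTRNR2L2 (3691 and 4149 FPKM).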

How the results depend on the processing

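The share of genes of at least 10 FPKM with a peak was 90.9%. It was 87.9% with the main TSS alone, 93.1% with TSSs within 1 kb, 92.3% for protein-coding genes, 88.5% with TPM and 91.6% without the MHC interval (chosen after seeing the data). The log2 difference between genes with and without a peak (4.94) was 4.79, 5.03, 5.16 and 5.15 under the first 4 of these, 3.09 with a pseudocount of 1, 3.10 for genes of at least 0.1 FPKM, and 4.96 to 5.06 with a library left out. High genes without a peak (86) numbered 236 from 20 FPKM, 53 from 100 FPKM, 158 with TPM and 84 to 92 with a library left out. Silent genes with a peak (188) numbered 85 when protein-coding, 307 under 0.1 FPKM, 462 at 3 counts or fewer, 61 with no gene of at least 1 FPKM in the peak and 291 to 304 with a library left out. The rank correlation of width and level (0.218) was 0.223 for the main TSS, 0.273 for protein-coding genes, 0.298 for single-gene peaks, 0.255 from 1 FPKM and 0.213 to 0.220 with a library left out.

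TPL calls depended more on the settings. The median log2 change of the high genes without a peak turned from 0.08 to -0.13 in TAM cells and from 0.27 to -0.01 in NT cells with genes from 20 FPKM, and to -0.11 in TAM cells without the first TAM + TPL library. Genes without and with a peak that were lower in TAM cells (6 and 177) numbered 2 and 84 with the RNA entries tested as deposited, 22 and 426 at an adjusted p of 0.05 by edgeR, 28 and 472 from 20 FPKM, and 1 to 3 and 56 to 94 with a library left out. In NT cells (12 and 183) they numbered 4 and 102, 27 and 412, 38 and 479 under the same settings, 3 and 51 with the 2 groups fitted alone, and 8 to 19 and 134 to 204 with a library left out. A replicate block gave 6 and 167 in TAM and 12 and 176 in NT cells, with 5.68% and 6.52% of all genes lower. Deviations of same-numbered replicates from their group means correlated with r of -0.245 for NT and NT + TPL and -0.110 for TAM and TAM + TPL. With 2 libraries in each group this cannot settle whether equal numbers mark pairs. Crossed numbers, added after seeing the data, gave 7 and 183 in TAM and 12 and 189 in NT cells. Over all genes 7.68% and 8.92% were then lower. The cause of these shifts was not tested. The peak lists carry no depth, so no limit of detection could be set for a missing peak.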
